A study of Mus musculus with 16 samples.

Results

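The cytosolic ribosomal protein genes are the genes whose products, with the ribosomal RNAs, make up the large and the small subunit of the ribosome outside mitochondria. Members were set by a rule on the symbol, and the set was chosen with earlier results of these data known. The rule took symbols of the form Rpl or Rps with a number, together with Rplp0, Rplp1, Rplp2 and Rpsa. It left out the S6 kinase genes that share the Rps prefix. The array carried 83 of them, read by 170 probes, among 20124 named genes. Of these 83 genes, 80 were bright enough to be tested. By the prefix of the symbol alone, 48 were counted to the large subunit and 32 to the small subunit. A symbol does not show that the product is part of the ribosome. They were measured in mitral cells, which carry the output of the olfactory bulb, picked by hand from ICR mice. Cells had received plasmids by in utero electroporation at embryonic day 12, with expression driven by the ubiquitous CAG promoter. The control cells carried pCAG-EYFP alone and the Kir2.1 cells carried pCAG-EYFP with pCAG-Kir2.1, a potassium channel of the inward rectifier kind, which lowers the excitability of neurons. All 4 groups therefore carried EYFP, and they were control cells at postnatal day 3 (P3), Kir2.1 cells at P3, control cells at P6 and Kir2.1 cells at P6. Each group had 4 arrays, and each array held cDNA pooled from 10 single cells after 30 cycles of PCR. How many animals the cells came from is not stated, so the p-values measure the spread between pools, part of which may be technical.

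Ribosomal proteins are made in nearly equal amounts, since each subunit takes up a single copy of almost every one of them. Their mRNAs are among the most abundant of a cell and begin with a stretch of pyrimidines, the 5′ terminal oligopyrimidine tract, through which the mTOR kinase adjusts their translation. In growing neurons the ribosome supply sets how much protein can be made for the growth of axons and dendrites.

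The promoters of these genes are shown because most of the genes lay on the same side of their own mean in most pools, as given below. Those counts include shifts shared by all features. RefSeq windows on GRCm38.p6, from 250 bases before the annotated start to 50 after it, were at hand for 62 of the 83 genes. The letters CCGGAAG, the core to which ETS family factors such as GABP bind, were found on either strand in 25 of the 62 windows (40.3%), against 9.12% of all 27025 gene windows and 11.9% of the 17492 windows of coding genes. A stretch of at least 8 unbroken C or T letters on the strand of the gene, within 30 bases of either side of the start, was found in 32 of 62 (51.6%), against 22.8% of all windows. The letters CTCTTTCC on either strand were present in 14.5% of the members' windows and 3.04% of all, AAGATGG, the core of the YY1 motif, in 14.5% and 6.48%, and TATAA in 27.4% and 25.5%. These matches are descriptions of the letters, and the annotated start can lie some bases away from the one a cell uses. The 4 genes below had lower values at P6 in control cells, as did 74 of the 80 genes tested. A link between the letters and that difference was not tested. The CCGGAAG letters (CTTCCGG on the other strand) are in capitals. Each sequence runs from 60 bases before the start to 30 bases after it.
Rpl39 (chrX:37085193-37085282, minus strand): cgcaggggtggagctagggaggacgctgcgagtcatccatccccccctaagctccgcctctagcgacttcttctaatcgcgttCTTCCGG
Rpl41 (chr10:128549139-128549228, minus strand): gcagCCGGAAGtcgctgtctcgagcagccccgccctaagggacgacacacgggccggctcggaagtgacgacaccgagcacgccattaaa
Rps3a1 (chr3:86142639-86142728, minus strand): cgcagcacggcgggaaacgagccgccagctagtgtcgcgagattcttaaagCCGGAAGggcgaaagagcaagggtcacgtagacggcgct
Rpl11 (chr4:136053364-136053453, minus strand): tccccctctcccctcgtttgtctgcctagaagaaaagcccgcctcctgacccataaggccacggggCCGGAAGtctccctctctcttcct

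The longest pyrimidine stretch within the same 90 bases is in capitals in the next 4 genes, the first one where lengths are equal. In Rps27l it begins at base -22 and lies wholly before the start, and an unmarked stretch of equal length lies nearer the start. Rpl14 is shown because its Kir2.1 differences had opposite signs at the 2 ages, Rps27 and Rps27l because they are paralogs, and Rpl27a for the longest stretch of the 4, which has 20 bases.
Rpl14 (chr9:120571457-120571546, plus strand): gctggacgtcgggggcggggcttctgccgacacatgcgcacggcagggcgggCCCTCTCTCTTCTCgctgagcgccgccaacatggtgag
Rps27 (chr3:90213619-90213708, minus strand): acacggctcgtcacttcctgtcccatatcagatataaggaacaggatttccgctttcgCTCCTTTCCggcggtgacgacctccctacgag
Rps27l (chr9:66946026-66946115, plus strand): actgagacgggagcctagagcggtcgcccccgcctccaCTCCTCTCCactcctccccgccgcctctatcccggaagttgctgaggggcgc
Rpl27a (chr7:109519135-109519224, plus strand): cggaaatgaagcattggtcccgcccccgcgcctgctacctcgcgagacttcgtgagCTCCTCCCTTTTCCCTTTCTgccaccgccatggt

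The arrays had 34.3% to 41.1% of their probes well above background, and 21070 features, 12035 of them named genes, were tested. All P3 arrays lay on slide 1 and all P6 arrays on slide 2, and the effects of age and of slide cannot be told apart. Control and Kir2.1 pools lay on different rows of each slide, so row and treatment cannot be told apart either. Of 11 markers of mitral and tufted cells, 9 or 10 were well above background on every array. Markers of other cells were present as well, and differed between groups. The summed linear signal of 13 interneuron markers, relative to the 75th percentile of the array, was 0.55 to 1.1 in control and 0.738 to 1.11 in Kir2.1 pools at P3, and 2.71 to 8.78 in control and 0.604 to 3.02 in Kir2.1 pools at P6, with 10 to 12 of the 13 markers well above background in P6 control and 6 to 9 in the other groups. The 9 astrocyte and radial glia markers summed to 1.75 to 4.35, 3.53 to 10.1, 11.7 to 14.2 and 3.93 to 15.4 in the same order of groups. Ensheathing cell markers (6) summed to 1.57 to 8.48, 3.54 to 9.60, 10.2 to 14.9 and 2.92 to 30.0, and vascular and blood markers (9) to 0.833 to 1.03, 0.821 to 1.23, 0.933 to 1.46 and 0.766 to 4.20. The oligodendrocyte lineage (8 markers) reached at most 4.00, 2.97, 5.83 and 5.93, microglia (9) 0.498, 0.376, 2.05 and 1.02, and dividing cells (7) 0.368, 0.439, 0.437 and 0.918. The mitral and tufted markers summed to 18.6 to 25.1, 18.9 to 24.0, 11.3 to 19.2 and 19.0 to 31.6.

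Ribosomal protein transcripts were abundant and steady in all groups. Of the 83 genes, 77 passed background clearly on each of the 16 arrays (the "well above background" mark of the scanner software). Rpl10l, Rpl3l and Rpl39l, the copies of Rpl10, Rpl3 and Rpl39 that are best known from testis or muscle, reached it on 0, 1 and 2 arrays and were not tested. Rpl21 reached it on 5 arrays, Rpl7l1 on 12 and Rps4l on 13. The residual SD between pools of a group, on the log2 scale, had a median of 0.23 over the 80 genes, against 0.91 over all features and 0.55 over the 11000 features with every array well above background.

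The level of the set is given as the median over 80 genes of the log2 signal, scaled to the same 75th percentile as the markers. It was 3.72, 3.46, 3.75 and 3.62 in the P3 control pools and 3.85, 3.84, 3.94 and 3.87 in the P3 Kir2.1 pools. At P6 it was 3.01, 3.33, 3.57 and 3.25 in control pools and 3.46, 3.58, 3.47 and 3.34 in Kir2.1 pools. The 4 P3 Kir2.1 pools were the highest of the 16, and the lowest value belonged to P6 control pool 1. Shares were taken of the linear signal summed over the 21070 features tested, with each named gene read by 1 probe. The 80 genes took 6.10% ± 0.41 (SD, n = 4) of it in control and 6.60% ± 0.17 in Kir2.1 pools at P3. At P6 they took 4.82% ± 0.66 in control and 5.65% ± 0.35 in Kir2.1 pools. In pooled cells, fewer cells of a type and less RNA per cell cannot be told apart. The number of the 80 genes above their own 16-pool mean was 66, 32, 68 and 55 in the P3 control pools and 77, 71, 78 and 72 in the P3 Kir2.1 pools. At P6 it was 2, 15, 41 and 8 in control pools and 21, 56, 40 and 7 in Kir2.1 pools. The genes thus leaned one way in most pools and split about evenly in pool 3 of both P6 groups. Over all features, the median deviation from the 16-pool mean ran from -0.20 (P6 Kir2.1 pool 3) to 0.21 (P3 Kir2.1 pool 3). That of the members was -0.01 and 0.35 in these pools, so the counts include shifts shared by all features. In P6 control pool 1 it was -0.58 for the members and 0.05 for all features. P6 control pool 1, with the lowest level, also had the most probes well above background (41.1%). The interneuron marker sums of the P6 control pools 1 to 4 were 8.78, 4.63, 3.15 and 2.71, beside their medians of 3.01, 3.33, 3.57 and 3.25. Pool 1 had the highest sum and the lowest median, and pool 4 had the lowest sum but not the highest median. A relation of the sums to the medians was not tested.

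**Figure D1:**
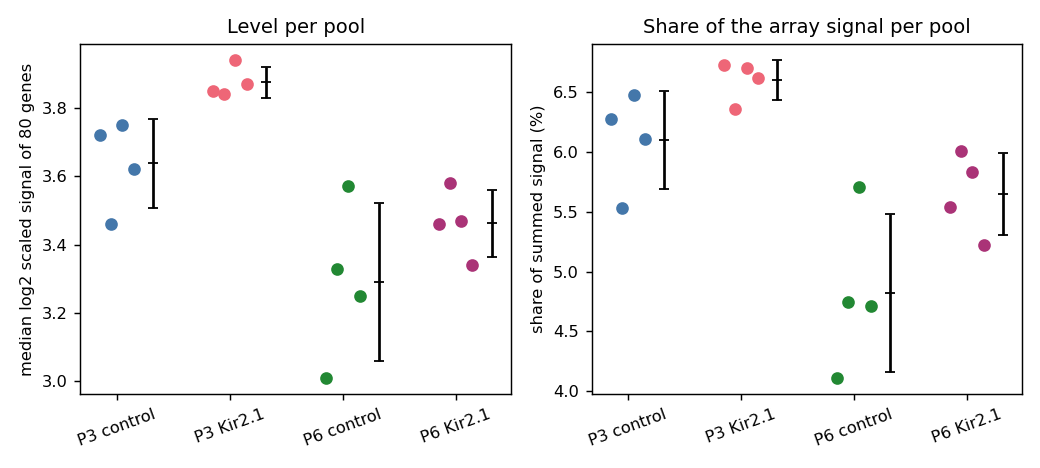
Level of the ribosomal protein genes in each of the 16 pools (points), with the mean and SD of each group of 4 pools to the right of its points. The left panel gives the median log2 scaled signal of 80 genes and the right panel the share of the summed array signal in percent. The axes do not start at 0, and the 4 P3 Kir2.1 pools lie between 3.84 and 3.94 on the left, above all other pools.

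**Figure D2:**
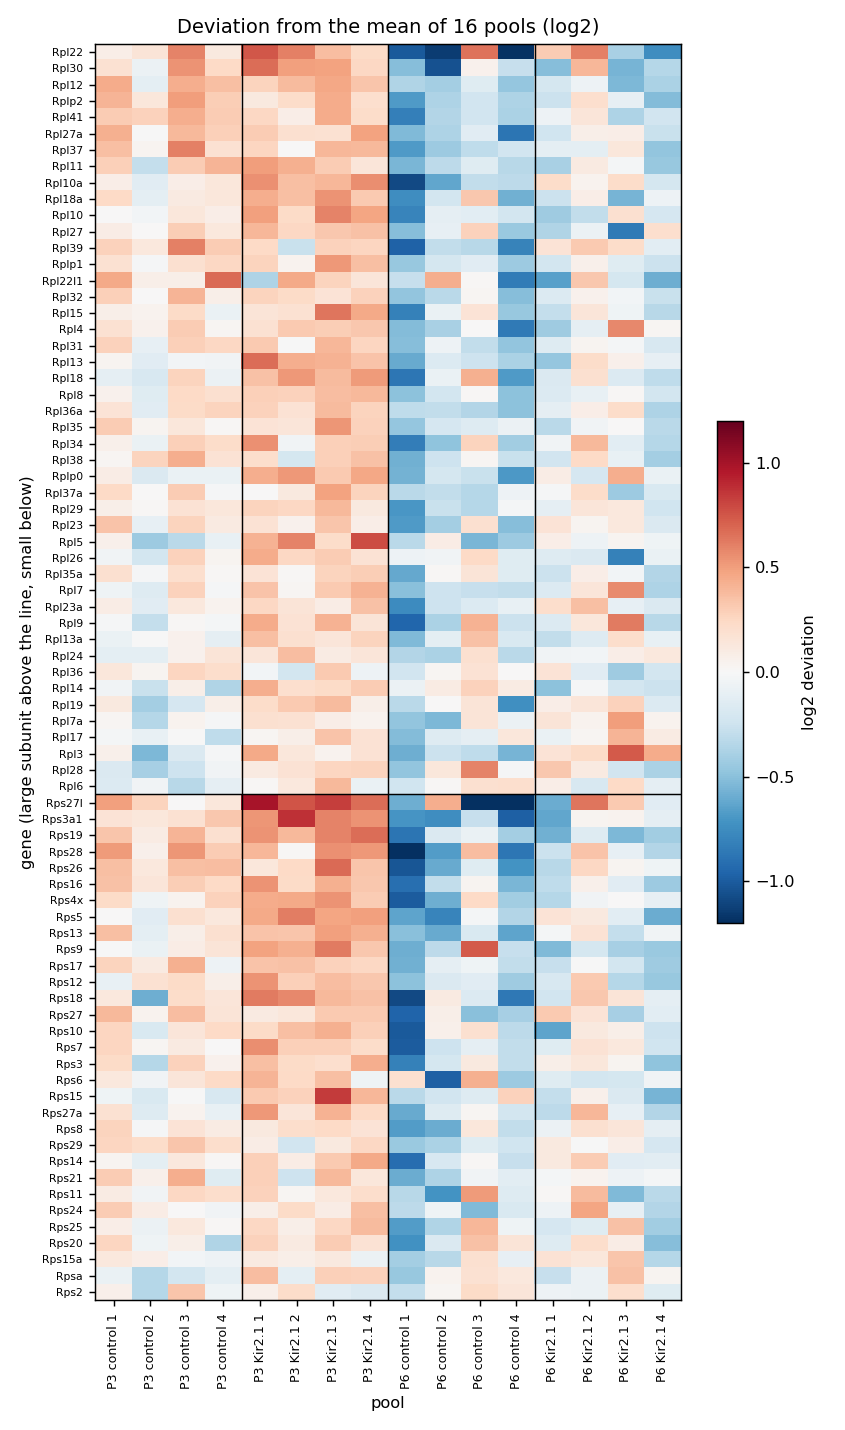
Deviation of each of the 77 genes clearly detected on every array from its own mean over 16 pools, on the log2 scale, with large subunit genes above the horizontal line and small subunit genes below it. Colours stop at 1.2 in either direction, and shifts shared by all features are not taken out. Most genes are red in the P3 Kir2.1 pools (71 to 78 of the 80 tested lay above their mean) and blue in P6 control pool 1 (78 lay below), while pool 3 of both P6 groups is mixed.

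At P3, ribosomal protein genes were mostly slightly higher in Kir2.1 cells than in control cells, by a median of 0.21 on the log2 scale (1.16-fold), and no single gene passed the test. The difference was above 0 for 68 of the 80 genes (85%), against 47.8% of all features, whose median was -0.03. With limma, 0 of 80 had an adjusted p under 0.05, against 0.00949% of all features, and at an unadjusted p under 0.05 there were 5 genes higher and 1 lower, against 3.56% and 2.97% of all features. In 22 genes (27.5%) all 4 Kir2.1 pools lay above all 4 control pools, against 4.08% of all features, and no gene had the groups apart in the other direction, against 2.72%. Among those well above background on all arrays, it was 22 of 77 members and 614 of 11000 features. The genes were read in the same pools and are not independent of each other, so such counts, here and below, describe the set only. Genes of the large subunit had a median of 0.20 and those of the small subunit one of 0.24. Some marker lists of other cells leaned higher in Kir2.1 cells at P3 too. The astrocyte list had a median of 0.87 (5 of 7 above 0) and the vascular and blood list one of 0.78 (7 of 8 above 0). The interneuron list had one of -0.02, with 5 markers above 0 and 6 below. In it, Meis2 and Gad2 had 2.27 (SE 0.59) and 3.77 (SE 1.32), with limma adjusted p-values of 0.37 and 0.599. No marker of these lists passed the adjusted threshold. The part of these cells in the result was not tested.

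At P6 the set again stood higher in Kir2.1 cells, by a median of 0.25 (1.19-fold), and again no gene passed the test. The difference was above 0 for 68 of 80 genes, against 43.7% of all features, whose median was -0.13. With limma 0 of 80 passed the adjusted threshold, against 1.76% of all features in either direction, and 9 were higher at an unadjusted p under 0.05 (11.2%, against 7.10% of all features) with none lower, against 10.4% of all features. The pools did not overlap in only 4 genes, Rpl3, Rpl10a, Rpl39 and Rplp0, all higher in Kir2.1 cells, which is 5% of the set against 3.21% of all features. Leaving out P6 control pool 1 left a median of 0.16. Interneuron markers differed between these groups as well, since 10 of the 11 tested were lower in Kir2.1 cells, with a median of -2.84, and all 7 astrocyte markers were, with a median of -1.14. Their part in the result was not tested.

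Averaged over both ages, the difference of Kir2.1 from control had a median of 0.21, and 75 of 80 genes lay above 0, against 43.8% of all features. With limma no member passed the adjusted threshold (0.712% of all features did), and 11 were higher at an unadjusted p under 0.05 with none lower, against 5.86% and 7.65% of all features. With quantile normalization the median was 0.12 here, 0.13 at P3 and 0.17 at P6. The 5 genes below 0, named after their values were seen, were Rpl22l1, Rpl26, Rpl36 and Rps2, with -0.15, -0.01, -0.15 and -0.03, and Rpl21, whose signal lay mostly at background. Only Rpl10a and Rplp0 had Kir2.1 pools above all control pools at both ages, 2 of 80 genes (2.5%) against 0.408% of all features.

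Between P3 and P6, most ribosomal protein genes were lower at the later age in control cells, with a median difference of -0.40 (0.758-fold). Of the 80 genes, 74 lay below 0, against 53.3% of all features. The median over all features was -0.07. Rpl39 was the only member called by limma, 1 of 80 in the lower direction, which is no more than the 1.25% of all features. Its call ended in 22 of 28 alternative fits. At an unadjusted p under 0.05 there were 32 genes lower (40%, against 9.92% of all features) and none higher, against 8.01%. All 4 P6 pools lay below all 4 P3 pools in 26 genes (32.5%), against 6.67% of all features. The 6 genes above 0, named after their values were seen, were Rpl14, Rpl28, Rpl6, Rps2, Rpsa and Rps15, with values of 0.25, 0.27, 0.20, 0.02, 0.16 and 0.00. Markers of other cells moved with age here too, since all 11 interneuron markers tested were above 0 with a median of 2.79 and all 7 astrocyte markers with a median of 2.21. Their part in the lower ribosomal protein level was not tested.

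In Kir2.1 cells the difference between P6 and P3 had a similar size, a median of -0.37 (0.774-fold) with 74 of 80 genes below 0, against 58.6% of all features and a median of -0.16 over all features. No gene passed the adjusted threshold with limma, against 0.878% of all features, and at an unadjusted p under 0.05 there were 23 genes lower (28.8%, against 9.78% of all features) and none higher, against 5.19%. The P6 pools lay below all P3 pools in 30 genes (37.5%), against 7.61% of all features. The interneuron markers had a median of -0.64 in this comparison, with 7 of 11 below 0, and the astrocyte markers one of 0.33. The 6 genes above 0, named after their values were seen, were Rpl7l1, Rpl3, Rpl7a, Rpl39 and Rps15a, with values of 1.13, 0.19, 0.06, 0.02 and 0.01, and Rpl21. Without a filter on dim probes the median over all features was -0.52, below the -0.37 of the members, so in this comparison the position of the set relative to all features depended on the filter.

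**Figure D3:**
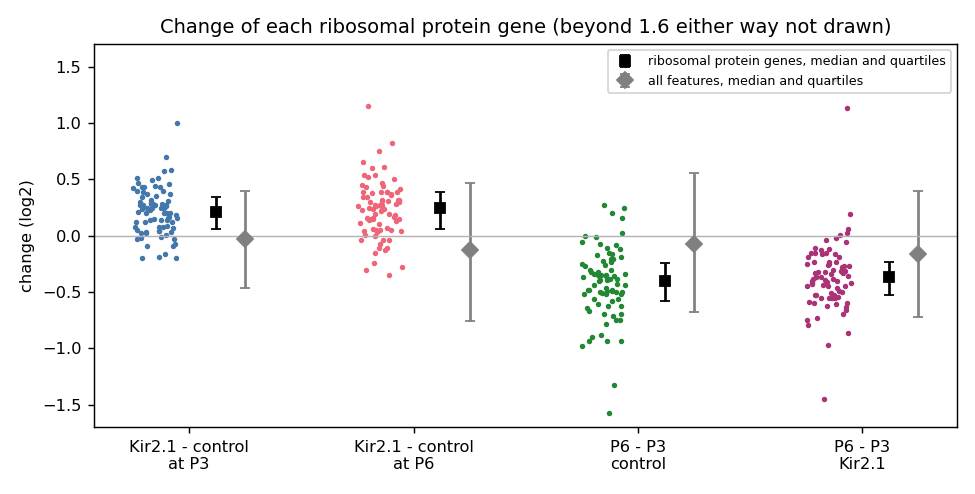
Difference of each of 80 ribosomal protein genes (points, log2 scale) in 4 comparisons, with the median and quartiles of these genes (squares) and of all 21070 features (diamonds). Rpl21 in the first and the third comparison and Rpl7l1 in the second lie beyond the axis. The points lie mostly above 0 for Kir2.1 against control and mostly below 0 for P6 against P3.

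The effect of Kir2.1 did not differ detectably between the ages. The interaction, the Kir2.1 difference at P6 minus that at P3, had a median of 0.03 over the 80 genes, with 45 above 0 (47.3% of all features were), and 0 passed the adjusted threshold with limma, against 0.0902% of all features. At an unadjusted p under 0.05, Rpl39 lay above 0 and Rpl14 and Rps15 below it, against 4.30% of all features above and 6.38% below. Large subunit genes had a median of 0.04 in this comparison.

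Among the proteins of the large subunit, Rpl39 was the only one past the threshold in the main fit. It is a very small protein in the wall of the tunnel through which the new peptide leaves. Its log2 level was 3.94, 3.79, 4.27 and 3.97 in control and 3.90, 3.40, 3.94 and 3.92 in Kir2.1 pools at P3, and 2.69, 3.37, 3.33 and 2.86 in control and 3.83, 3.98, 3.88 and 3.54 in Kir2.1 pools at P6. The 4 P6 control pools were the lowest of the 16, and they overlapped neither with P3 control nor with P6 Kir2.1 pools. It fell by 0.93 (SE 0.23) from P3 to P6 in control cells, with a limma adjusted p of 0.0491. In Kir2.1 cells the difference with age was 0.02 (SE 0.23, adjusted p = 0.981), and that between Kir2.1 and control at P6 was 0.75 (SE 0.23, adjusted p = 0.112). The interaction was 0.95 (SE 0.33) with a limma adjusted p of 0.30. A further probe of Rpl39 that was well above background on all arrays gave -0.90 for the age difference in control cells, and another, well above background on 8 arrays only, gave 0.64 (SE 1.67). The call ended in 22 of 28 alternatives, 14 of which left out a single array: the adjusted p was 0.115 without P6 control pool 1, 0.117 without pool 4 of that group, and between 0.0781 and 0.142 without 1 of the P3 control pools. It also ended without a Kir2.1 pool, at 0.0527 to 0.0665, and with the probes averaged, at -0.40 and 0.758.

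Rpl41, the smallest ribosomal protein, lies at the border of the subunits. Its level was 5.58, 5.55, 5.71 and 5.58 in control and 5.52, 5.35, 5.72 and 5.49 in Kir2.1 pools at P3, and 4.45, 4.92, 5.04 and 4.89 in control and 5.21, 5.42, 4.90 and 5.04 in Kir2.1 pools at P6. The control pools of the 2 ages did not overlap, whereas those of Kir2.1 cells did. With limma the age difference in control cells was -0.78 (SE 0.20, adjusted p = 0.0587). Rpl27a, a large subunit protein with the longest pyrimidine stretch among the sequences shown, had -0.75 (SE 0.21, limma adjusted p = 0.0816) in that comparison, without overlap.

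Rpl3 and Rpl10 belong to the region where peptide bonds are formed. For Rpl3, the levels were 2.75, 2.15, 2.51 and 2.67 in control and 3.14, 2.82, 2.73 and 2.86 in Kir2.1 pools at P3, and 2.1, 2.43, 2.38 and 2.13 in control and 2.85, 2.92, 3.42 and 3.13 in Kir2.1 pools at P6. At P6 all Kir2.1 pools lay above all control pools, and at P3 the groups overlapped by 1 pair of pools. With limma the difference between Kir2.1 and control was 0.82 (SE 0.22, adjusted p = 0.0675) at P6, 0.37 (SE 0.22, adjusted p = 0.834) at P3 and 0.59 (SE 0.15, adjusted p = 0.0919) over both ages. Unlike most members, Rpl3 was not lower at P6 in Kir2.1 cells, at 0.19 (SE 0.22), while that difference was -0.26 (SE 0.22) in control cells. Rpl10, which joins the large subunit late, had a difference of 0.40 between Kir2.1 and control at P3, without overlap, and of 0.13 at P6, and an age difference of -0.63 in Kir2.1 cells with a limma adjusted p of 0.19.

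Rpl10a forms the mobile L1 stalk at the exit site for transfer RNA. Its levels were 3.63, 3.41, 3.63 and 3.69 in control and 4.10, 3.91, 3.95 and 4.11 in Kir2.1 pools at P3, and 2.47, 2.93, 3.25 and 3.24 in control and 3.77, 3.59, 3.77 and 3.34 in Kir2.1 pools at P6. Each Kir2.1 pool lay above each control pool of its age. With limma the differences were 0.43 (SE 0.22, adjusted p = 0.803) at P3, 0.65 (SE 0.22, adjusted p = 0.137) at P6 and 0.54 (SE 0.15, adjusted p = 0.128) over both.

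The P stalk, made of Rplp0 with Rplp1 and Rplp2, draws elongation factors to the ribosome. Rplp0 read 3.49, 3.23, 3.32 and 3.32 in control and 3.83, 3.92, 3.71 and 3.86 in Kir2.1 pools at P3, and 2.83, 3.19, 3.13 and 2.71 in control and 3.49, 3.20, 3.83 and 3.32 in Kir2.1 pools at P6. As with Rpl10a, the Kir2.1 pools lay above the control pools at both ages, at P6 narrowly, with 3.20 against 3.19 in the nearest pools. With limma the differences were 0.49 (SE 0.20, adjusted p = 0.691) and 0.50 (SE 0.20, adjusted p = 0.224), and 0.49 (SE 0.14, adjusted p = 0.134) over both ages. The other stalk proteins differed less with Kir2.1: Rplp1 had 0.14 and 0.17 and Rplp2 -0.09 and 0.25 at P3 and P6. In control cells all stalk genes were lower at P6 without overlap, by -0.37 for Rplp0, -0.46 for Rplp1 and -0.75 (SE 0.21, limma adjusted p = 0.0758) for Rplp2. Rpl12, at the base of the stalk, had -0.62 in control and -0.66 in Kir2.1 cells, with limma adjusted p-values of 0.118 and 0.139.

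Rpl5 and Rpl11 bind the 5S ribosomal RNA, and when free they bind Mdm2, the ubiquitin ligase of p53. Rpl5 stood at 1.75, 1.26, 1.37 and 1.6 in control and 2.11, 2.29, 1.91 and 2.47 in Kir2.1 pools at P3, and 1.37, 1.78, 1.14 and 1.26 in control and 1.77, 1.63, 1.72 and 1.64 in Kir2.1 pools at P6. The P3 Kir2.1 pools were the highest of the 16, and at P6 the groups overlapped through a single control pool. With limma the difference between Kir2.1 and control was 0.70 (SE 0.21, adjusted p = 0.537) at P3, the lowest p of the set in that comparison, and 0.30 (SE 0.21, adjusted p = 0.49) at P6. Rpl11 had 0.17 and 0.15 in these comparisons, and age differences of -0.52 in control and -0.53 in Kir2.1 cells.

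Rpl14, a large subunit protein, had Kir2.1 differences of opposite sign at the 2 ages. Its levels were 3.87, 3.64, 3.98 and 3.55 in control and 4.35, 4.11, 4.14 and 4.21 in Kir2.1 pools at P3, and 3.84, 4.01, 4.19 and 4.01 in control and 3.42, 3.90, 3.69 and 3.65 in Kir2.1 pools at P6. Kir2.1 pools were the higher ones at P3, without overlap, and mostly the lower ones at P6. The differences were 0.44 (SE 0.19) and -0.35 (SE 0.19), and the interaction was -0.79 (SE 0.27) with a limma adjusted p of 0.30. Rps15 and Rps9, at the head of the small subunit and at its mRNA entry, had a like order, with interactions of -0.70 (SE 0.31) and -0.71 (SE 0.36) and limma adjusted p-values of 0.441 and 0.522. For Rps29, a small protein of the head, the interaction was 0.50 (SE 0.26, limma adjusted p = 0.522). Rpl13, another large subunit protein, had 0.51 (SE 0.20) for Kir2.1 at P3 and 0.28 at P6.

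In the small subunit the lowest p-values with age belonged to Rps19, Rps26 and Rps3a1. Rps19, needed to mature the small subunit and often mutated in Diamond-Blackfan anaemia, read 3.39, 3.15, 3.46 and 3.25 in control and 3.59, 3.44, 3.65 and 3.73 in Kir2.1 pools at P3, and 2.18, 2.88, 2.98 and 2.65 in control and 2.48, 2.90, 2.52 and 2.64 in Kir2.1 pools at P6. All P6 pools lay below all P3 pools. The age difference was -0.97 (SE 0.21, limma adjusted p = 0.0548) in Kir2.1 cells and -0.64 (SE 0.21, adjusted p = 0.132) in control cells. The former passed the threshold when P6 control pool 1 was left out, at a limma adjusted p of 0.0412, and lay at 0.05 without pool 3 of that group.

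Rps26, at the exit of the mRNA channel, read 4.71, 4.48, 4.71 and 4.72 in control and 4.49, 4.59, 5.03 and 4.69 in Kir2.1 pools at P3, and 3.33, 3.75, 4.21 and 3.64 in control and 4.02, 4.60, 4.39 and 4.30 in Kir2.1 pools at P6. Control pools of the 2 ages stood apart, and the P6 Kir2.1 pools overlapped with both. With limma the age difference was -0.93 (SE 0.23, adjusted p = 0.0512) in control and -0.37 (SE 0.23, adjusted p = 0.489) in Kir2.1 cells, with an interaction of 0.55 (SE 0.33, adjusted p = 0.587). Without P6 control pool 3, the former had an adjusted p of 0.029.

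Rps3a1, a neighbour of Rps26 on the platform of the small subunit, read 2.60, 2.57, 2.62 and 2.76 in control and 2.96, 3.31, 3.03 and 2.97 in Kir2.1 pools at P3, and 1.73, 1.69, 2.16 and 1.45 in control and 1.81, 2.47, 2.48 and 2.33 in Kir2.1 pools at P6. The ages did not overlap in either treatment, and at P3 the Kir2.1 pools lay above the control pools. With limma the age difference was -0.88 (SE 0.22, adjusted p = 0.052) in control and -0.79 (SE 0.22, adjusted p = 0.113) in Kir2.1 cells, and the difference with Kir2.1 over both ages was 0.47 (SE 0.16, adjusted p = 0.196). In control cells it passed without P6 control pool 3 (adjusted p = 0.0356) and without P6 Kir2.1 pool 1 (0.0435).

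Rps6, the target of the S6 kinases, and Rpsa, the laminin receptor protein of the platform, had no difference that passed the test. Rps6 had differences with Kir2.1 of 0.12 and 0.05 and with age of -0.32 and -0.39, in control and Kir2.1 cells. Rpsa had 0.39 and 0.04 with Kir2.1 and 0.16 and -0.19 with age. For Rpsa the probes were at odds: another probe, also well above background on all arrays, gave 0.99 and 1.07 with Kir2.1 and -1.08 with age in control cells, while a further one gave 0.42, 0.03 and 0.13. RefSeq names 12 pseudogenes of Rpsa, which a probe may also read.

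**Figure D4:**
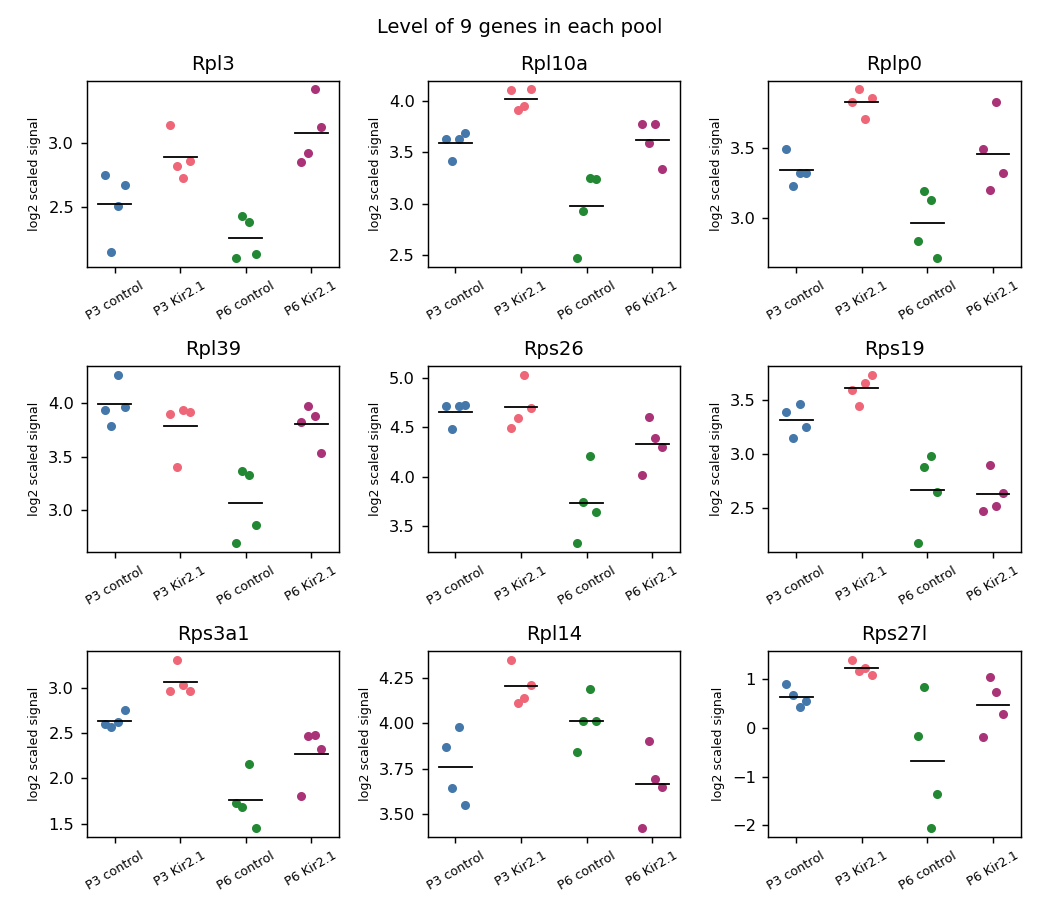
Log2 scaled signal of 9 ribosomal protein genes in each pool (points) with the mean of each group (bars), on a separate axis for each gene that does not start at 0. Rpl10a and Rplp0 have Kir2.1 pools above control pools at both ages, Rpl39 is lowest in P6 control pools, and Rps19 and Rps3a1 are lower at P6 in both treatments.

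Several members have a paralog among the genes measured. Rps27l, a copy of Rps27 that p53 can induce, read 0.90, 0.68, 0.42 and 0.55 in control and 1.40, 1.17, 1.24 and 1.08 in Kir2.1 pools at P3, and -0.17, 0.85, -2.06 and -1.35 in control and -0.18, 1.05, 0.73 and 0.28 in Kir2.1 pools at P6. Its P6 control pools spread widely and overlapped with all other groups except P3 Kir2.1. The differences with Kir2.1 were 0.58 and 1.15 (SE 0.49) at P3 and P6, and that with age in control cells was -1.32 (SE 0.49, limma adjusted p = 0.177). Rps27 itself had -0.03 and 0.43 (SE 0.24) with Kir2.1 and -0.69 (SE 0.24, limma adjusted p = 0.155) with age in control cells.

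Rpl22, which also binds RNA outside the ribosome, had differences of 0.25 and 0.61 (SE 0.41) with Kir2.1 and -0.90 with age in control cells, and its paralog Rpl22l1 had -0.19, -0.11 (SE 0.32) and -0.48. Rps4x, the X-linked copy of a small subunit protein, had 0.31 and 0.32 (SE 0.24) with Kir2.1 and -0.56 with age in control cells. Rps4l, whose probe reads a RefSeq transcript listed as non-coding, spread from -8.78 to -1.11 over the pools. Its SE of 1.78 exceeded each of its differences in the 4 comparisons between groups. Rpl7l1, a paralog of Rpl7, was well above background on 1 P6 control array and on all 4 P6 Kir2.1 arrays. Its fitted difference of 3.11 (SE 0.98, limma adjusted p = 0.119) thus rests in part on signals at background, and it ran from 0.56 to 4.63 over the alternatives. It passed without P6 control pool 1 (4.02, limma adjusted p = 0.0428) and without that pool and P6 Kir2.1 pool 4 together (4.63, limma adjusted p = 0.0321).

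Rpl21 was the one canonical member with values at the background: the brighter of its 2 tested probes, each well above background on 5 arrays, read -3.34, -3.70, -3.60 and -9.22 in control and -9.40, -9.71, -9.11 and -9.47 in Kir2.1 pools at P3, and -9.09, -9.23, -3.26 and -9.61 in control and -10.01, -3.91, -9.79 and -8.44 in Kir2.1 pools at P6. The signal was either between -3.91 and -3.26 or at -8.44 and below, and in P3 Kir2.1 this probe was on no array well above background. Its differences read the floor of the arrays and are not given as sizes, and it passed the test in no comparison. RefSeq names 15 pseudogenes of Rpl21.

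Processed pseudogenes, copies of the mRNA in the genome, are frequent for these genes: RefSeq names 321 for 63 of the 83 members, 24 of them for Rpl31 and 23 for Rps12. What share of a probe's signal comes from them was not tested. Second probes gave a check on single probes, since 50 of the tested genes had 84 further tested probes. These had the sign of the probe used in 66 of 84 cases for Kir2.1 at P3, in 77 at P6, in 75 for age in control cells and in 68 for age in Kir2.1 cells, with medians of 0.16, 0.25, -0.43 and -0.25. For Rps2, a protein at the mRNA entry, the probe used gave -0.04 for Kir2.1 at P6 and 0.02 for age in control cells, and the other probe gave 0.88 (SE 0.30) and -1.02 (SE 0.30), although both were well above background on all arrays. For Rpl15 the probes gave interactions of -0.14 and 1.02 (SE 0.37), for Rpl36a age differences in control cells of -0.50 against 0.14 and 0.19, and for Rpl30 age differences in Kir2.1 cells of -0.73 and -0.63 against 0.02.

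The count of calls differed with how limma sets the prior for the spread. With a prior that follows the level, added after the small spread of these genes was seen, 16 of 80 genes were called lower at P6 in control cells, against 2.58% of all features. They included Rpl41 (adjusted p = 0.00339), Rps29 (0.00617), Rps26 and Rpl39 (both 0.00798), Rplp2 (0.00866) and Rps3a1 (0.00873). In Kir2.1 cells 5 were called lower, Rps19 (adjusted p = 0.00972), Rpl12, Rps3a1, Rpl14 and Rps15, against 0.826% of all features. For Kir2.1 against control, Rpl3, Rpl39 and Rpl10a were called higher at P6 (against 1.59% of all features) and Rpl3, Rplp0, Rpl10a, Rpl5 and Rpl13 over both ages (against 1.07%), and none was called at P3 (against 0.0427% of all features). Rpl14 was called in the interaction, at an adjusted p of 0.0497, against 0.356% of all features below 0.

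Other genes of translation were read from lists that, like the members, were chosen with earlier results in view. The lists overlap and are not separate evidence. Eif3e and Eif2s3x are also in the initiation factor list, Npm1 is also in that of ribosome biogenesis, and several elongation factors are in the list given first. Over all features, the medians were -0.03 at P3 and -0.13 at P6 for Kir2.1 against control, with 47.8% and 43.7% above 0, and -0.07 and -0.16 for age in control and Kir2.1 cells. Among 18 tested genes whose mRNAs carry a 5′ terminal oligopyrimidine tract without coding for a ribosomal protein, the median was 0.28 at P3 and 0.41 at P6 for Kir2.1 against control, with 14 and 16 genes above 0. For age in control and Kir2.1 cells it was -0.40 and -0.23. In this list Eif3e, a subunit of initiation factor 3, was higher in P6 Kir2.1 cells by 2.13 (SE 0.31, limma adjusted p = 0.0056) and by 1.47 (SE 0.22, limma adjusted p = 0.00966) over both ages. Eif2s3x, a subunit of initiation factor 2, was higher at P6 by 2.06 (SE 0.41), with a limma adjusted p of 0.0257. From P3 to P6 in control cells Eif2s3x fell by 2.11 (SE 0.41, limma adjusted p = 0.0159), the RNA binding protein Hnrnpa1 fell by 1.30 (SE 0.26, limma adjusted p = 0.0177) and the nucleolar protein Npm1 fell by 1.26 (SE 0.30, limma adjusted p = 0.045). The call for Eif3e at P6 ended only when the other groups were left out of the fit (adjusted p = 0.11), and that for Mrpl40 at P6, given next, likewise (0.0747), whereas Npm1 lost its call in 17 of 28 alternatives, Eif2s3x at P6 in 8, Eif2s3x with age in 2 and Hnrnpa1 in 7. With the tested probes of a gene averaged, Hnrnpa1 was at -0.03 (limma adjusted p = 0.986), and Eif2s3x at 0.65 (SE 0.87, limma adjusted p = 0.746) for Kir2.1 at P6 and at -2.33 (limma adjusted p = 0.176) with age. Leaving out P6 control pool 1 or 4, or P6 Kir2.1 pool 2 or 4, ended the Eif2s3x call at P6, and leaving out P3 control pool 1 or 4 or P6 control pool 4 ended that of Hnrnpa1.

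The mitochondrial ribosome had 77 tested genes, with medians of 0.18 and 0.37 for Kir2.1 at P3 and P6 and -0.43 and -0.29 for age in control and Kir2.1 cells. Mrpl40 and Mrpl37, both of its large subunit, were higher in P6 Kir2.1 than in P6 control cells by 2.05 (SE 0.33, limma adjusted p = 0.0103) and 4.12 (SE 0.86, limma adjusted p = 0.0325). They fell by 2.16 (limma adjusted p = 0.00451) and fell by 5.17 (limma adjusted p = 0.00734) from P3 to P6 in control cells. The call for Mrpl37 at P6 ended in 11 of 28 alternatives, and with another background correction (normexp) its difference was 0.85 at P6 and -1.48 (limma adjusted p = 0.104) with age in control cells.

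Ribosome biogenesis genes, 50 tested, had medians of -0.13 and 0.27 with Kir2.1 and -0.66 and -0.42 with age. Of these, Nop10, a protein of the particles that modify ribosomal RNA, fell by 1.77 (SE 0.32, limma adjusted p = 0.0126) in control cells. The 40 initiation factor genes had medians of -0.03, 0.15, -0.50 and -0.13 in the same order. Their calls include those of Eif3e and Eif2s3x given above. Eif4a1, the RNA helicase, fell by 0.95 (SE 0.23, limma adjusted p = 0.0448) with age in control cells, a call lost in 20 of 28 alternatives. In Kir2.1 cells Eif1b was higher at P6 than at P3 by 1.28 (SE 0.25, limma adjusted p = 0.0316), a call lost in 9. The 13 elongation factor genes had medians of 0.34, 0.15, -0.56 and -0.23 with no call. Of all features, 0.00949% and 1.76% were called for Kir2.1 at P3 and P6, and 0.878% for age in Kir2.1 cells. For age in control cells 1.25% were called lower. Eef1a1, which brings transfer RNA to the ribosome, had the lowest p with Kir2.1 at P6, at 0.62 (SE 0.18, limma adjusted p = 0.0856).

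In the list for RNA polymerase I, with 11 tested genes and medians of -0.35, -0.75, -1.16 and -1.34 in the same order, Taf1a, a part of its promoter factor, was at least 4.95-fold lower at P6 than at P3 in Kir2.1 cells (limma adjusted p = 0.0262, lost in 7 of 27 alternatives), since it was not well above background in P6 Kir2.1. The fold sets the P3 mean against the lowest signal that counted as above background, or the probe's own where higher. The 16 genes of the TOR pathway had medians of 0.12, -0.63, -0.04 and -0.27, and Pdcd4, an inhibitor of Eif4a that S6 kinase marks for degradation, rose by 1.31 (SE 0.19, limma adjusted p = 0.00354) with age in control cells.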

How the data were processed

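Arrays were 1-colour (Cy3) Agilent expression arrays, read with Agilent Feature Extraction 10.7.3.1, per the submitters' processing notes. The deposited scanner tables give each spot's processed signal, a linear intensity from which background had been subtracted, per the file headers. The deposited value table holds the same signal as a ratio to the 75th percentile of the gene spots of an array, found by setting it against the scanner signals (quotient of both 0.996 to 1). It is linear and not centred on genes, and its medians were 0.0337 to 0.12.

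Control spots and outlier spots were left out and spots of a probe averaged. Symbols came from RefSeq accessions through a table for GRCm38.p6 (26582 of 28116 probes with such an accession matched). Signals were scaled to the 75th percentile over the 12103 probes well above background on all 16 arrays, then log2 was taken. Probes well above background on 4 or more arrays were tested, and each gene was represented by its probe of highest mean. One model over the 16 arrays was fitted with limma 3.58.1 in R 4.3.3 (lmFit, eBayes, 12 residual and 1.64 prior degrees of freedom), and p-values were adjusted by Benjamini-Hochberg over 21070 features per contrast, with a threshold of 0.05. The fit was tested on simulated data. Precision is limited by the number of arrays. Groups did not overlap where every pool of one lay above every pool of the other, for the mean of both ages at each age.

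Members and lists were chosen with earlier results of these data known. The members named were those past the threshold, the 6 with the lowest p per contrast, those without overlap at both ages, those below background on an array, those whose probes disagreed in sign, and a set named whatever its values (the stalk, 5S and paralog genes and Rps6, Rps19, Rpl10 and Rpsa). From other lists, called genes were named, or those with the lowest p. No pool was a duplicate (highest correlation of arrays 0.926). Same-numbered pools of different groups did not deviate together (16 pairs, correlations -0.028 to 0.031). The labels state no pairing by number. These correlations cannot exclude one, since the spread between pools could hide it. The result of 1 further gene list is not reported here.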

Additional observations from a re-analysis of the deposited data

Results flagged for a closer look

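Single pools stood apart from the other 3 of their group in 8 of 140 groups of 4 values tested, the named genes and the median of the set, where the gap to the nearest pool divided by the range of the group, the ratio given below, exceeded Dixon's 95% critical value for 4 samples. Chance gives about 5% of such groups. In P3 control, Rps26 in pool 2 (4.48 against 4.71 to 4.72, ratio 0.96) and Rpl12 in pool 2 (3.62 against 4.10 to 4.18, ratio 0.86) were low, and Rpl22 in pool 3 (2.56 against 2.05 to 2.12, ratio 0.86) was high. In P6 control, Rpl10 in pool 1 was low (3.51 against 4.08 to 4.19, ratio 0.84) and Rpl22 in pool 3 was high (2.62 against 0.78 to 0.96, ratio 0.90). Rpl39 in P3 Kir2.1 pool 2 was low (3.40 against 3.90 to 3.94, ratio 0.93). Rpl21 was near the floor in P3 control pool 4 (ratio 0.94) and above it in P6 control pool 3 (ratio 0.92).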

How the results depend on the processing

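For Kir2.1 at P6, the median of the members was 0.46 with scaling over all gene probes and 0.45 with the deposited value table, which moved the median of all features from -0.13 to 0.09 and 0.08. Quantile normalization lowered it to 0.17, and lowered its excess over the median of all features from 0.38 to 0.16. The age median in control cells was -0.25 after quantile normalization, that in Kir2.1 cells -0.16 after it, -0.20 with all gene probes and -0.21 with the value table, and the interaction 0.20 and 0.19 with the latter 2. The count of called members at P6 for Kir2.1 was 1 with normexp, with a filter of 8 arrays and without the 2 arrays with most probes above background, and 3 with a prior that follows the level. For the mean of both ages it was 1 with normexp and 5 with that prior, and for the interaction 1 with that prior. For age in control cells the count was 0 with scaling over all gene probes, the value table, no filter, averaged probes, only the groups compared and without the 2 arrays, 4 with the filter of 8 arrays and with array weights, 5 with normexp and 16 with that prior. For age in Kir2.1 cells it was 1 with normexp, the 8-array filter, averaged probes and array weights, and 5 with that prior. The replicate number as a block gave 0 called members for age in control cells and changed no other count of called members.

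Leaving out each array gave medians of 0.14 to 0.23 for Kir2.1 at P3, 0.16 to 0.32 at P6, 0.16 to 0.25 for the mean, -0.52 to -0.33 and -0.43 to -0.30 for age in control and Kir2.1 cells, and -0.04 to 0.12 for the interaction. The counts stayed at 0 for Kir2.1 at P3, for the mean and for the interaction, and ran from 0 to 1 for Kir2.1 at P6, from 0 to 5 for age in control cells and from 0 to 2 for age in Kir2.1 cells. For age in control cells the 5 calls came without P6 control pool 3 and 2 without pool 2. Normexp used the median signal, since the planned setting on the mean signal was not run. That setting, the prior and the removal of 2 arrays were chosen after seeing the data. Why results moved was not tested. Signal over background limits Rpl21, Rpl7l1 and Rps4l.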
